A study of Mus musculus with 2 samples.

Results

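Nanog occupancy in mouse embryonic stem cells (ESCs) was examined around 7 genes of the epithelial program: the transcription factor genes Grhl2, Ehf, Elf3 and Ovol1, the splicing regulator gene Esrp1, and the adhesion genes Cdh1 and Epcam. They were taken by name, with earlier results of these data known, from 21755 protein-coding genes on chromosomes 1 to 19 and X. Of the 7, 6 had at least 1 Nanog peak within 100 kb of the transcription start site (TSS), as did 54.8% of all these genes. Chromatin came from Bruce-4 cells, an ESC line grown with mLIF and serum without any further treatment, and was immunoprecipitated with an antibody against Nanog before sequencing (ChIP-seq). The other sample was input, which is sheared chromatin without immunoprecipitation, and no peaks were listed for it. There was 1 sample of each kind, so no value below has a replicate error and no difference was tested. The peak list gives positions only, so the strength of a peak and the reads behind it cannot be read from it, and a gene without a listed peak may have a site that fell below the threshold of the peak call. Expression of the genes was not measured in these samples.

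ESCs grow as compact colonies whose cells are held together by E-cadherin, and the mesenchymal-to-epithelial transition, in which fibroblasts gain such junctions, is an early step on the way to induced pluripotency. The epithelial state rests on adhesion molecules at the cell surface and on regulators that switch on junction genes or hold back mesenchymal ones. Nanog is a homeodomain transcription factor of the pluripotency network and often binds distal elements together with Oct4 and Sox2. A peak near a gene is a position of Nanog occupancy and does not by itself say that the gene is controlled from there.

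The bases under 11 of the peaks near these genes are shown first, chosen among the peaks closest to each TSS, those with the gene as nearest and those that hold the consensus sequences discussed further on. All are on the plus strand of GRCm38 (mm10), whole where a peak is up to 300 bases wide and otherwise its central 300 bases, with capitals marking every copy of a searched consensus on either strand. At Grhl2 the closest peak upstream (chr15:37231522-37231821), the widest one in the first intron (chr15:37238408-37238707) and the one over a coding exon (chr15:37291483-37291752) are shown, with a Tead copy in the first, a Sox copy in the second and a pair of Ets copies in the last.
Grhl2 peak 3: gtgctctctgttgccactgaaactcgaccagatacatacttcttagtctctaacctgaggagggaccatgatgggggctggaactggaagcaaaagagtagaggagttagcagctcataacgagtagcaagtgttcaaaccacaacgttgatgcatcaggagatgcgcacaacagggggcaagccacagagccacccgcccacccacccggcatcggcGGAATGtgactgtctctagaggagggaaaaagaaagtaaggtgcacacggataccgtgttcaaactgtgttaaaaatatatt
Grhl2 peak 5: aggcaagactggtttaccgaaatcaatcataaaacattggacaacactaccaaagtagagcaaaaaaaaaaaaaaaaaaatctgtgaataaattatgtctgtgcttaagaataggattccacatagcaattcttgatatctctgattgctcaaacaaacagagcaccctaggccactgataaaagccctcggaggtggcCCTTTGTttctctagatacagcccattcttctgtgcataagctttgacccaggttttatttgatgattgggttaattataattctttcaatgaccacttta
Grhl2 peak 6: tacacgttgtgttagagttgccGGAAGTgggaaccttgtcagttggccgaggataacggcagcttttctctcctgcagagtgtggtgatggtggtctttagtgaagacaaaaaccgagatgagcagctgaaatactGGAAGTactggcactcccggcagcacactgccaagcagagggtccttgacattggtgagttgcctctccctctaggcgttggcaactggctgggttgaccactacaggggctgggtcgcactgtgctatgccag

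The single peak near Esrp1 (chr4:11389447-11389746) and the farther of the 2 peaks upstream of Ehf (chr2:103348168-103348402) are shown because they were the peaks of the 7 genes that held the Oct octamer. The other Ehf peak (chr2:103338685-103338984) held the sole Grhl consensus, and the Elf3 peak with Elf3 as its nearest gene (chr1:135217667-135217966) held a Klf copy and 2 Sox copies.
Esrp1 peak 1: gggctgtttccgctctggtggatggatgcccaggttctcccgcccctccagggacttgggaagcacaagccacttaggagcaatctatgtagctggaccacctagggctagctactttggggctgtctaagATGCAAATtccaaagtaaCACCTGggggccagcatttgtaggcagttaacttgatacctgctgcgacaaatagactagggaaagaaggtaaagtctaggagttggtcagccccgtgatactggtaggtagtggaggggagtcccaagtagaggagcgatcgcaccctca
Ehf peak 1: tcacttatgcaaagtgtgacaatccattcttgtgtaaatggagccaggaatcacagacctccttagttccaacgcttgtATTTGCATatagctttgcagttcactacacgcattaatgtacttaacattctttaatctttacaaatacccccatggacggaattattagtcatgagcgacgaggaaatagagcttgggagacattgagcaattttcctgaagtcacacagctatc
Ehf peak 2: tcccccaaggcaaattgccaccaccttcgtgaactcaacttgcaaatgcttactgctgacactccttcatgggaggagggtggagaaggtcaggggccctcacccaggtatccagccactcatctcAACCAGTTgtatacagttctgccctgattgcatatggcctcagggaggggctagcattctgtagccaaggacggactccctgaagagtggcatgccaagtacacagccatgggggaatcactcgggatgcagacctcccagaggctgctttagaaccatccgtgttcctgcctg
Elf3 peak 1: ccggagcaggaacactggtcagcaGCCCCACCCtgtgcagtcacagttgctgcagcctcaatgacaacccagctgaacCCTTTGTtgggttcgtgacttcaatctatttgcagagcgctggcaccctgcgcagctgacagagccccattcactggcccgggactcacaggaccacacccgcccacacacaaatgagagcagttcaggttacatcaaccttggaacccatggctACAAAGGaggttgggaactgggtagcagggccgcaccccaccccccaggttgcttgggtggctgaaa

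For the adhesion genes, the 3 peaks in the second intron of Cdh1 (chr8:106609129-106609428, chr8:106619521-106619811 and chr8:106632571-106632870) and the peak with Epcam as its nearest gene (chr17:87591720-87592019) are shown. The first of them held Klf, Tead and E-box copies and the second Sox and E-box copies, whereas none of the 10 consensus sequences was present in the third. The Epcam peak held 2 Ets copies.
Cdh1 peak 3: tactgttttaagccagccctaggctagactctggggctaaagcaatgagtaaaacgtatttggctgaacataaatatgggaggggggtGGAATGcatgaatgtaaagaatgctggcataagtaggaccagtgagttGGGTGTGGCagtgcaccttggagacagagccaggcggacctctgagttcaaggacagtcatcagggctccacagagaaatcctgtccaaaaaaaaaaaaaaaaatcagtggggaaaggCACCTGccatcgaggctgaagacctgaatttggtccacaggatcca
Cdh1 peak 4: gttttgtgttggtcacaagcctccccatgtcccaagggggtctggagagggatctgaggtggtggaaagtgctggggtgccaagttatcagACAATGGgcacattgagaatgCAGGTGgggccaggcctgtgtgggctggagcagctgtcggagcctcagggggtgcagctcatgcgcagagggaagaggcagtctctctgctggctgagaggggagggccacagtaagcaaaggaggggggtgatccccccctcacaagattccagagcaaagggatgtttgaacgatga
Cdh1 peak 5: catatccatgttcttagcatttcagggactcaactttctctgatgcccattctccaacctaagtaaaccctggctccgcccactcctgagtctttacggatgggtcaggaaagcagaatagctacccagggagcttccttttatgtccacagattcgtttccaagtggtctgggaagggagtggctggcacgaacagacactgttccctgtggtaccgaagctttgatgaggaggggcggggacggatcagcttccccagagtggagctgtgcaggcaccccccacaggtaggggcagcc
Epcam peak 1: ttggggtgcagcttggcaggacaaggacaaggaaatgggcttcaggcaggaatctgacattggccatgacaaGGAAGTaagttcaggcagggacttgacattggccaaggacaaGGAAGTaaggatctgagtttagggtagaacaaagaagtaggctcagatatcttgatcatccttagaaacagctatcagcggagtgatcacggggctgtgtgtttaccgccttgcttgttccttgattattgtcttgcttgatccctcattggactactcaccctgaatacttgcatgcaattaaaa

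Across the 7 genes, 19 distinct Nanog peaks lay within 100 kb of a TSS, measured from the middle base of the peak to the 5′ end of the gene. A peak within 50 kb was found at 6 of the 7 genes, against 35.2% of all genes, and one within 10 kb at 3 of the 7 (Grhl2, Esrp1 and Cdh1), against 10.6%. The mean number of peaks per gene was 2.71 within 100 kb, 2.0 within 50 kb and 0.714 within 10 kb, where the means over all genes were 1.00, 0.518 and 0.120. Of the 19 peaks, 6 were at Grhl2 and 5 at Cdh1, and the median within 100 kb was 2 against 1 over all genes. Just inside the limit was a peak of Cdh1 95.5 kb upstream of its TSS, and just outside it were a peak at -101.0 kb from the TSS of Elf3 and one at -104.3 kb from that of Epcam (negative distances are upstream). No peak overlapped the window from 250 bp upstream to 50 bp downstream of the TSS of any of the 7 genes, and 345 protein-coding genes (1.59%) had one there.

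Grhl2 (ENSMUSG00000022286.16, chromosome 15, 37233036 to 37363569, plus strand), a grainyhead-like factor that activates genes of epithelial junctions, had the most peaks of the 7. Its 6 peaks within 100 kb were matched or exceeded by 0.565% of protein-coding genes, and Grhl2 was the nearest protein-coding gene of every one of them. Peaks 1, 2 and 3 were intergenic, 68629, 17380 and 1365 bp upstream of the TSS, and were 413, 262 and 332 bp wide. Peaks 4 and 5 lay 4531 and 5522 bp downstream in intron 1 of 15, with widths of 235 and 403 bp and 672 bp between their edges. Peak 6 was centred 58581 bp downstream over coding exon 7 of 16 (37291561 to 37291672) and was 270 bp wide. Peaks 3, 4 and 5 formed a stretch in which neighbours lay within 12.5 kb of each other, so that the TSS of Grhl2 was flanked by occupied sequence on both sides. A peak as close as the one at 1365 bp was found at 2.76% of protein-coding genes.

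The position of Grhl2 in the genome also differed from that of most genes. No other protein-coding TSS lay within 100 kb, where the median over all genes was 3, and the stretch of genome to which Grhl2 was the nearest protein-coding gene measured 208.9 kb against a median of 47.1 kb. The part of this spacing in its number of peaks was not tested. Widening the limit to 200 kb added 2 peaks, both nearer to another gene.

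Esrp1 (ENSMUSG00000040728.15, chromosome 4, 11331933 to 11386783, minus strand) encodes an RNA-binding protein that sets the epithelial pattern of alternative splicing. It had 1 peak within 100 kb, an intergenic interval from 11389436 to 11389757, 322 bp wide and centred 2813 bp upstream. This was the most isolated of the 19 peaks, since the next peak on the chromosome was 156.1 kb away. One peak was also the median of all genes, but a peak as close to the TSS was found at 4.12% of them. Its bases held an Oct octamer and an E-box, centred at -15.0 and 2.0 bp from its middle, both on the plus strand. The Oct octamer is the recognition sequence of Oct4 and other POU factors.

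Ehf (ENSMUSG00000012350.15, chromosome 2, 103263433 to 103303278, minus strand), an Ets-family factor of epithelial tissues, had 2 peaks, both upstream and both with Ehf as the nearest protein-coding gene. They spanned 103338670 to 103338999 (330 bp, 35556 bp from the TSS) and 103348168 to 103348402 (235 bp, 45007 bp from the TSS), with 9168 bp between them. Both fell within the noncoding gene A930006I01Rik, the first over an exon and the second in an intron. They also lay between Ehf and Elf5, a related Ets-family gene whose TSS is 108.4 kb away, and the same 2 peaks were the ones within 100 kb of Elf5, whose closest peak was at 63.4 kb. Ehf had no other protein-coding TSS within 100 kb. As many peaks were found at 26.3% of all genes, and a peak as close at 27.6%.

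Elf3 (ENSMUSG00000003051.13, chromosome 1, 135253575 to 135258568, minus strand), another epithelial Ets-family factor, likewise had 2 peaks within 100 kb, both intergenic and downstream. Elf3 was the nearest protein-coding gene of the one from 135217632 to 135218001 (370 bp, 40752 bp from the TSS). The other, from 135180840 to 135181171 (332 bp, 77563 bp away), was nearer to Gpr37l1, whose TSS was at 13324 bp. Unlike Ehf, Elf3 lay among 4 other protein-coding TSSs within 100 kb, and its 2 peaks were also the 2 peaks of Gpr37l1, Arl8a and Ptpn7.

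Ovol1 (ENSMUSG00000024922.2, chromosome 19, 5549136 to 5560646, minus strand), a zinc finger repressor that restrains mesenchymal genes, was the one gene of the 7 without a peak within 100 kb. Its closest peak was centred 190487 bp upstream, from 5751003 to 5751264, in an intron of Ltbp3 and 10229 bp from the TSS of that gene. A peak as close was found at 73.4% of protein-coding genes. On the other side, the closest peak was at 198.2 kb and nearer to Eif1ad. With 10 other protein-coding TSSs within 100 kb, Ovol1 had the most neighbours of the 7 genes, and the stretch to which it was nearest measured 28.7 kb.

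Cdh1 (ENSMUSG00000000303.12, chromosome 8, 106603351 to 106670246, plus strand) encodes E-cadherin, the cadherin of adherens junctions. It had 5 peaks within 100 kb and was with Grhl2 1 of the 2 genes with at least 5, a count reached by 1.94% of all protein-coding genes. Peaks 3, 4 and 5 fell in intron 2 of 15, at 106609114 to 106609443, 106619521 to 106619811 and 106632540 to 106632901, with centres 5927, 16315 and 29369 bp downstream of the TSS and widths of 330, 291 and 362 bp. The gaps between them were 10077 and 12728 bp. The remaining 2 peaks were closer to Cdh3, the gene of P-cadherin, which lies upstream of Cdh1 in the same orientation. One (106507730 to 106508014, 285 bp) was centred 3019 bp upstream of the TSS of Cdh3 and 95479 bp from that of Cdh1, and had the highest GC content of the 19 peaks, 61.4%. The other (106515952 to 106516512) was in an intron of Cdh3, 5341 bp from its TSS and 87119 bp from that of Cdh1. With 561 bp it was the widest of the 19.

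Some peaks counted for Cdh1 were also counted for its neighbours. Cdh3 had 4 peaks within 100 kb, and 3 of them were also within 100 kb of Cdh1, which is 60.0% of the Cdh1 peaks and 75.0% of the Cdh3 peaks. All 5 were also within 100 kb of Gm10073, a gene 29.9 kb from the TSS of Cdh1.

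Epcam (ENSMUSG00000045394.9, chromosome 17, 87635979 to 87651129, plus strand), which encodes a cell surface adhesion molecule carried by epithelia and by ESCs, had 3 peaks within 100 kb and none within 10 kb. Epcam was the nearest protein-coding gene of 1 of them, an intergenic peak from 87591689 to 87592051 (363 bp) centred 44109 bp upstream. The other 2 were 28433 and 41910 bp downstream of the TSS, 560 and 475 bp wide, and nearer to another gene. The first 2 of these 3 peaks were the most repetitive of the 19, with 53.2% and 51.1% of their bases soft-masked, against medians of 9.36% for the 19 and 11.2% for all 8735 peaks.

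Regulators were then set against adhesion genes. The 5 regulators had 11 peaks within 100 kb, and for 10 of them the regulator was the nearest protein-coding gene. The 2 adhesion genes had 8 peaks, of which 4 had the adhesion gene as nearest and 4 had another gene, 2 at each locus. Being the nearest gene also depends on how close other genes are. Grhl2 and Ehf, with 6 and 2 of the 10 peaks, had no other protein-coding TSS within 100 kb. Esrp1 had 2, Elf3 4 and Ovol1 10, while Cdh1 had 3 and Epcam 1. The part of this spacing in the counts was not tested. Regulators had 0 to 6 peaks with a median of 2, and adhesion genes 3 and 5, so the ranges overlapped. Grhl2 carried 6 of the 11 regulator peaks, and without it the other 4 regulators had 5 peaks, 4 of them with the regulator as nearest, and a mean of 1.25 per gene in place of 2.2. Widths ran from 235 to 413 bp at the regulators and from 285 to 561 bp at the adhesion genes. With 2 adhesion genes in 1 library, none of these differences could be tested.

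**Figure D1:**
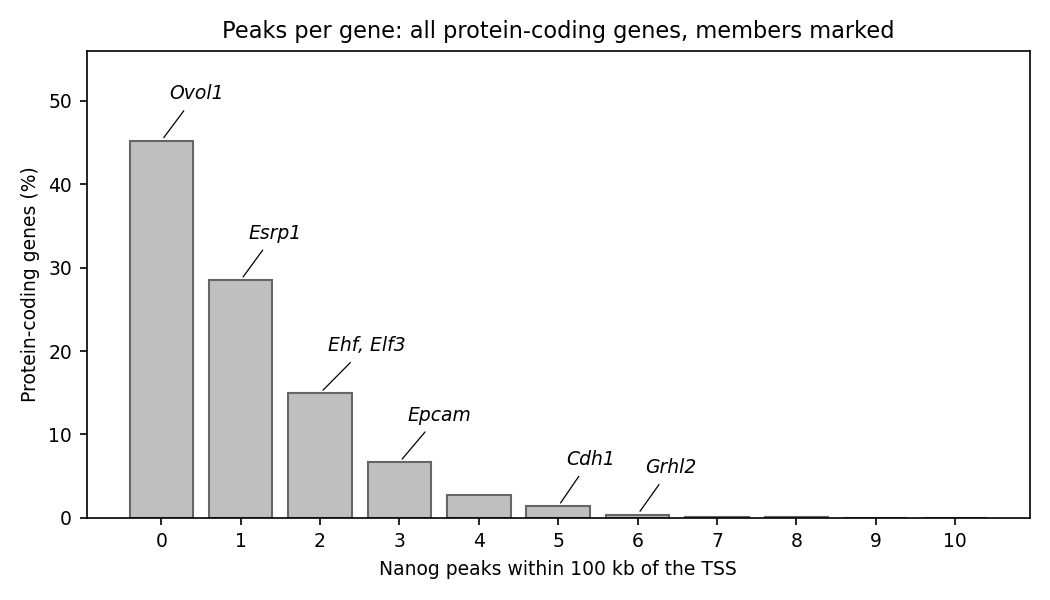
Share of the 21755 protein-coding genes (percent, vertical axis) with a given number of Nanog peaks within 100 kb of the TSS (horizontal axis), with the 7 genes written above the bar they belong to. Ovol1 is in the bar at 0, the tallest, Esrp1 at 1, Ehf and Elf3 at 2, Epcam at 3, Cdh1 at 5 and Grhl2 at 6.

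Counted from the peaks, 6 of the 7 genes were the nearest protein-coding gene of at least 1 peak, against 24.6% of all protein-coding genes. This count also depends on how much of the genome is nearest to a gene. That stretch measured 54.8 kb (Cdh1) to 208.9 kb (Grhl2) for the 6, each above the median of 47.1 kb, and 28.7 kb for Ovol1. Its part in the count was not tested. Of the 19 peaks, 14 had one of the 7 as nearest gene, and the other 5 were nearer to another gene. Upstream and downstream positions were about evenly represented, with 9 and 10 peaks, and 6 peaks fell inside the body of the gene itself (3 each for Grhl2 and Cdh1). By annotation, 9 were intergenic, 8 intronic, 1 in a noncoding exon and 1 in a coding exon. Having another peak within 12.5 kb was true of 9 of the 19 (47.4%) and of 2105 of all 8735 peaks (24.1%). The median width was 332 bp against 319 bp for all peaks, the median GC content 51.9% against 47.7%, and the median observed-to-expected ratio of CpG dinucleotides 0.280 against 0.179. Since peaks of one gene share a locus, these are descriptions of 6 loci and not of 19 independent sites.

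The consensus sequences searched on both strands were Sox (CCATTGT or CCTTTGT), the Oct octamer (ATGCAAAT), the Nanog core (CCATTA), Klf (GCCACACCC, GCCACGCCC, GCCCCACCC or GCCCCGCCC), Esrrb (TCAAGGTCA), Tead (GGAATG), AP-1 (TGACTCA or TGAGTCA), Grhl (AACCNGTT), the E-box of the Snail and Zeb repressors (CACCTG) and Ets (GGAAGT). The Nanog core and the first Sox form share their opening letters, as do Tead and Ets, but no copies overlapped in the 19 peaks. Shares below are given for the 19 peaks with 95% intervals by the exact Clopper-Pearson method (an allowance for counting error and nothing else), then for all 8735 peaks, for 17236 flanking windows of the same widths placed 1 kb beyond the peaks, and for 32851 RefSeq promoters of 300 bases each. A match is a description of the letters in the window, and no match says only that these letters are not there.

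Of the sequences read by pluripotency factors, Sox was found in 3 of the 19 peaks (15.8%, interval 3.38 to 39.6), namely Elf3 peak 1, Grhl2 peak 5 and Cdh1 peak 4. Its share was 28.2% of all peaks, 11.6% of flanks and 9.28% of promoters. The Oct octamer was in 2 peaks (10.5%, interval 1.30 to 33.1), one at Ehf and one at Esrp1, and in 5.72% of all peaks, 2.19% of flanks and 1.74% of promoters. The Nanog core was in 4 (21.1%, interval 6.05 to 45.6), which were Elf3 peak 2, Cdh1 peaks 1 and 2 and the Epcam peak farthest downstream (Epcam peak 3), against 18.1% of all peaks, 13.0% of flanks and 7.73% of promoters. All 4 were peaks nearer to another gene than to the one they were counted for, and no peak of Grhl2, Esrp1 or Ehf held this core. This split of 4 matches was not tested, and 3 peaks held the core in their central 200 bp. Klf copies were in 2 peaks, Elf3 peak 1 and Cdh1 peak 3 (10.5%, against 8.998% of all peaks, 2.29% of flanks and 16.0% of promoters). Esrrb was in none of the 19, which has an upper bound of 17.6%, and in 3.53% of all peaks, 1.17% of flanks and 0.423% of promoters.

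Of the other sequences searched, the E-box was the most frequent, in 7 of the 19 peaks (36.8%, interval 16.3 to 61.6), with 32.5% of all peaks, 22.3% of flanks and 20.2% of promoters. Those 7 included 2 of the Cdh1 intron peaks and the Esrp1 peak. Ets copies, the letters that Ehf and Elf3 themselves can read, were in 4 peaks (21.1%, against 20.5% of all peaks, 19.1% of flanks and 23.8% of promoters), namely Grhl2 peak 6 and all 3 peaks of Epcam. Those Epcam peaks were partly repetitive, with 53.2%, 51.1% and 38.7% of their bases soft-masked. The Grhl consensus was in 1 peak, Ehf peak 2 (5.26%, interval 0.133 to 26.0, against 3.21% of all peaks, 2.56% of flanks and 2.09% of promoters). Tead was in 4 peaks (21.1%, against 25.4%, 17.5% and 14.7%) and AP-1 in 2 (10.5%, against 8.04%, 6.16% and 5.20%). For each of the 10 the interval of the 19 peaks included the share of all peaks, so no departure was detectable with this number of peaks. Grhl2 peak 4 and Cdh1 peak 5 held none of the 10.

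**Figure D2:**
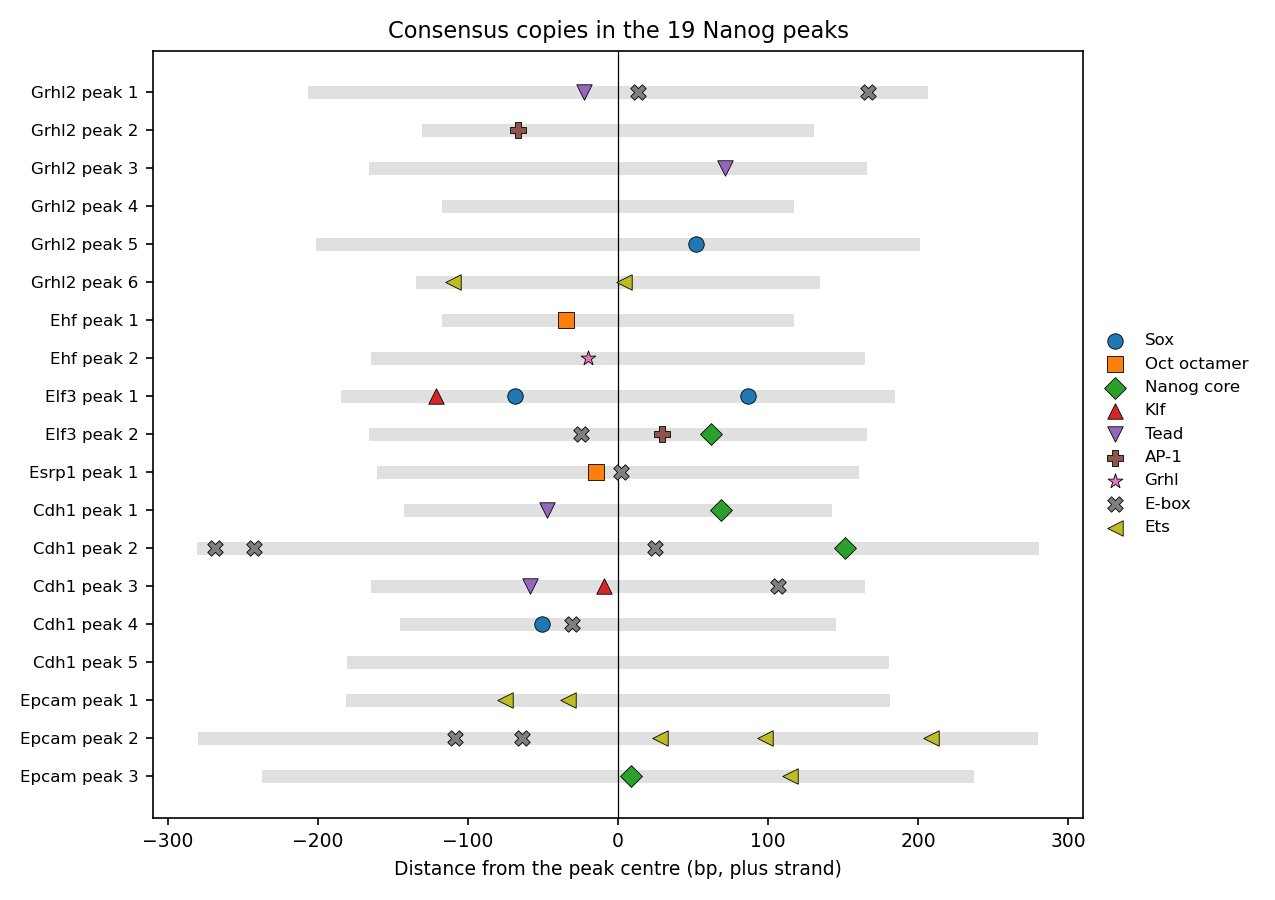
Copies of 9 of the 10 consensus sequences (symbols; the tenth, Esrrb, had none) in each of the 19 peaks, by distance in bp from the middle of the peak on the plus strand, with grey bars for the extent of each peak. Octamers appear only in Ehf peak 1 and Esrp1 peak 1, both within 35 bp of the middle, and the bars of Grhl2 peak 4 and Cdh1 peak 5 are empty.

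To place the 7 genes beside others of the same program, 43 further epithelial genes and 19 mesenchymal genes were examined in the same way. These lists were chosen with earlier results of these data known. Of the 43, 29 (67.4%) had a peak within 100 kb and 10 (23.3%) within 10 kb, with a median of 55.3 kb to the closest peak. The shares over all protein-coding genes were 54.8% and 10.6%. The median over the 7 genes was 28.4 kb and over all protein-coding genes 85.3 kb. Among the 9 other epithelial regulators, which include the relatives Grhl1, Grhl3, Ovol2, Esrp2 and Elf5, 6 had a peak within 100 kb and none within 10 kb. The closest peak was 174.7 kb from Grhl1, 41.2 kb from Grhl3 and 25.8 kb from Esrp2. Ovol2, like Ovol1, had none within 100 kb, and its closest peak was at 105.8 kb.

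Of the 23 junction and polarity genes, 15 had a peak within 100 kb and 5 within 10 kb (all protein-coding genes: 54.8% and 10.6%). Among the 5 were the claudin gene Cldn4 (562 bp), Cdh3 (3019 bp), the polarity gene Llgl2 (6646 bp) and Cxadr, which encodes an adhesion molecule of tight junctions (7953 bp). Cldn4 had 4 peaks within 10 kb and 8 within 100 kb, more than any of the 7 genes. The neighbouring claudin gene Cldn3 had 9 within 100 kb, among them the 4 close to Cldn4. Of 4 keratin genes 2 had a peak within 100 kb, a share near the 54.8% of all genes, and Krt8 had one at 3166 bp. Of the 7 genes for surface proteases, their inhibitors and polarised trafficking, 6 had a peak within 100 kb and 4 within 10 kb, against the same 54.8% and 10.6%. They were the protease genes Prss8 (549 bp) and St14 (2524 bp) and the inhibitor genes Spint1 (160 bp) and Spint2, whose peak at 7382 bp was nearer to Ppp1r14a.

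Of the 19 mesenchymal genes, 8 (42.1%) had a peak within 100 kb and 1 (5.26%) within 10 kb. The shares over all protein-coding genes were 54.8% and 10.6%, and no difference from them was tested. A peak within 100 kb was found at 6 of the 11 structural genes (54.5%) and at 2 of the 8 regulators (25.0%). The median distance to the closest peak was 123.8 kb over the 19. The gene with a peak within 10 kb was Snai1, which encodes the Snail repressor of Cdh1. It had 2 peaks there, the closer one in its own intron 2091 bp downstream of the TSS. Lists of genes are not replicates, and the spread within each list was wide: the closest peak lay 1.365 to 190.5 kb away for the 7 genes and up to 386.7 kb away for the 43.

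**Figure D3:**
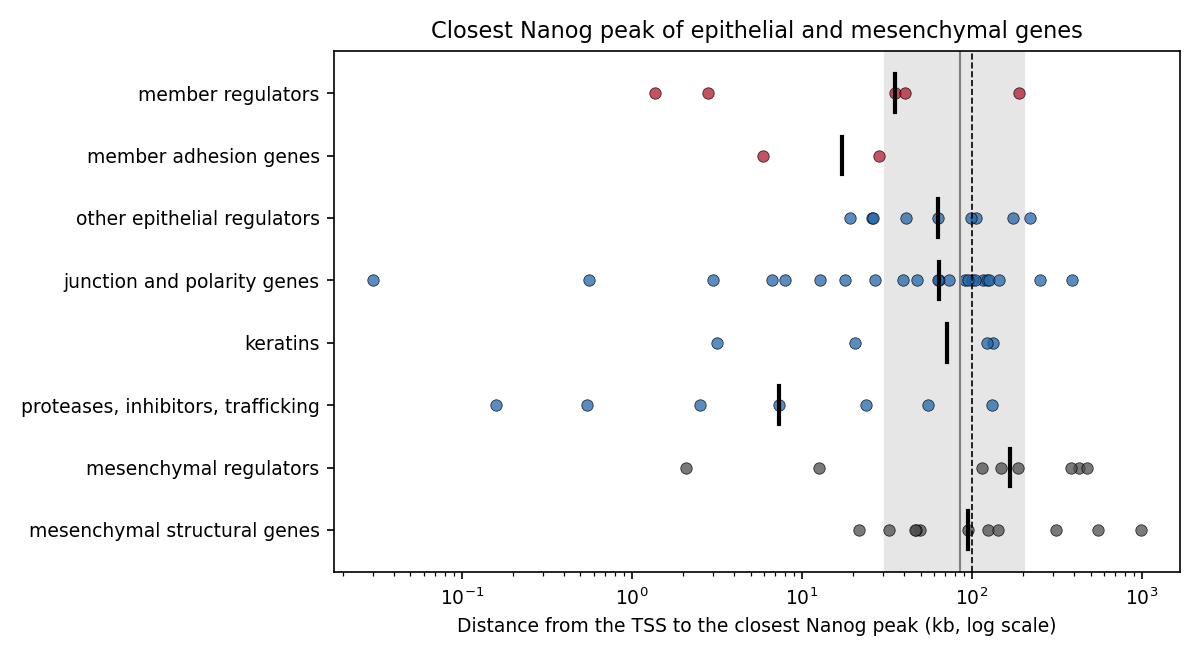
Distance from the TSS to the closest Nanog peak (kb, log scale) for each gene, 1 dot per gene, with black bars at the median of each list. The grey band is the interquartile range of all protein-coding genes (30.7 to 202.6 kb), the grey line their median (85.3 kb) and the dashed line 100 kb; Grhl2 and Esrp1 are the leftmost red dots, and Ovol1 is the red dot right of the dashed line.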

How the data were processed

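Per the study's methods and the submitters' processing notes, reads were inspected with FastQC and aligned to mm10 with Bowtie2, filtered with BEDtools and SAMtools for quality, duplicates, blacklisted regions and mitochondrial reads, after which MACS2 called the peaks. The threshold of that call and the use of the input as its control are not given in the sources used here, and both decide which weak sites are listed. The authors deposited each peak as chromosome, start and end in base pairs, with no other value such as a score or strength. The study's methods state an approximate sequencing yield, but the reads kept after filtering and the reads behind each peak are not given in the sources used here.

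From the 8860 lines, 8737 distinct intervals were kept (123 lines repeated one), 8735 of them on chromosomes 1 to 19 and X. Genes came from GENCODE vM21 and bases from GRCm38, the assembly that mm10 denotes. RefSeq promoters of the GRCm38 table were held for 2 of the 7 genes, and both were identical to the bases read. Distance ran from the middle base of a peak to the 5′ end of the gene, and the nearest gene was the protein-coding gene with the closest TSS, at most 1000 kb away, following the single-nearest-gene assignment of the study. Annotation was read at the middle base. Positions are 1-based. Flanks that overlapped a peak or held N bases were left out. Python 3.11.15 with pandas 2.3.3, numpy 2.4.6, pysam 0.24.0 and SciPy 1.17.1 and samtools 1.23.1 were used, and the code was tested on simulated data.

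The 7 genes and the gene and consensus lists were chosen with earlier results of these data known. Named were the 7 genes, the protein-coding gene nearest to each of their peaks, genes of the epithelial and mesenchymal lists with a peak within 10 kb, and protein-coding genes with the same peaks within 100 kb. Relatives of the 7 genes, Cldn3, the microRNAs and the genes nearest to peaks outside this rule were named after their values were seen. Some genes and sites that this rule takes are not reported here.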

Additional observations from a re-analysis of the deposited data

How the results depend on the processing

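The 28 counts recomputed under other settings stayed within 1.5 times the reported count in 24 cases. Some of these could not have moved. None of the 19 peaks was on more than 1 line and their smallest gap was 672 bp, so using all lines or merging peaks within 300 bp changed nothing. The 10 consensus counts stayed within their intervals when the search was limited to the central 200 bp. Those intervals are wide, and Klf went from 2 peaks to 1. With the limit at 200 kb, 30 distinct peaks lay near the 7 genes in place of 19, a wider limit taking in more peaks, and Ovol1 then had 2. Keeping peaks at or above the median width left 9 of the 14 peaks with one of the 7 as nearest gene. When all 55413 annotated genes, noncoding ones and pseudogenes included, competed for a peak, 3 of the 7 genes in place of 6 were the nearest gene of a peak, with 6 peaks in place of 14, since more TSSs were then available. The TSS of every transcript gave 21 peaks, with 7 at Grhl2 and 3 at Ehf. No paired analysis was possible because 1 sample has values. No replicate could be left out, the list holds neither a strength by which to rank peaks nor the reads behind each, so a missing peak, as at Ovol1, cannot be told from one below the threshold.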

Other observations

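Among noncoding genes of the epithelial program, the miR-200 family, whose members silence the Zeb repressors, had peaks at a distance in both clusters examined. The closest peak lay 64.4 kb from the 5′ end of Mir200b, over an exon of B3galt6. For Mir200c it lay at 86.1 kb, where the nearest protein-coding gene was Spsb2. Each had 1 peak within 100 kb. Among protein-coding genes, 54.8% had a peak within 100 kb and the median distance to the closest peak was 85.3 kb, so these values are ordinary ones.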
